A study of Mus musculus with 6 samples.

Results

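Transcript levels of 10 transcription factor genes of blood and endothelium, Tal1, Lmo2, Gata1, Gata2, Runx1, Fli1, Erg, Lyl1, Etv2 and Mecom, were followed in day 6 embryoid bodies. The genes were taken from a list of haemangioblast and early blood regulators, and every probe set annotated to 1 of them alone was used, which gave 20 of the 45101 probe sets, and 10 of the 18193 named genes, of an Affymetrix GeneChip for the mouse genome. In the doxycycline group, embryoid bodies of the Hoxb4i mouse embryonic stem cell line received 2 µg/ml doxycycline from day 4 for 48 hours, which switches on HOXB4 from an integrated tet-on cassette. In the uninduced group, embryoid bodies of the same line were harvested on day 6 without doxycycline. Both groups carry the cassette, and cells without the cassette given doxycycline are not among the samples used here, so that the homeodomain protein HOXB4 and the drug cannot be told apart. Each group has 3 arrays, from biological replicates called experiments A, B and C, and in each experiment 1 doxycycline array stands beside 1 uninduced array. Each array measured a mixed culture, seeded at 3500 cells/ml, so fewer cells of a type and less RNA per cell cannot be told apart.

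These factors form the core of a regulatory network that opens the blood and endothelial fates in early mesoderm. ETV2, an ETS factor, acts at the top of this network in the haemangioblast stage; TAL1, a basic helix-loop-helix factor, then works in a complex with the adaptor LMO2, E proteins, LDB1 and a GATA factor. FLI1, ERG, GATA2, RUNX1 and LYL1 act together with this complex at many of the same regulatory elements in blood progenitors, and several of them also bind their own and each other's elements.

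As examples, 1 RefSeq promoter window of each of 4 genes is shown, each with 250 bases before and 50 bases after a transcription start (build GRCm38.p6, 5′ to 3′ on the gene's strand). The windows of Gata1, Gata2, Runx1 and Etv2 were searched and are not shown. Capitals mark the letters searched on both strands: for GATA factors AGATAA or TGATAA or AGATAG or TGATAG, for ETS factors CCGGAA or CAGGAA, for E-boxes CAGATG or CAGCTG or CAGGTG, for RUNX factors TGTGGT or TGTGGC or TGCGGT, and for homeodomains TAATTA. No match overlaps another in these windows, and on the minus strand a word appears as its reverse complement.
Tal1, chr4:115056176-115056475, plus strand: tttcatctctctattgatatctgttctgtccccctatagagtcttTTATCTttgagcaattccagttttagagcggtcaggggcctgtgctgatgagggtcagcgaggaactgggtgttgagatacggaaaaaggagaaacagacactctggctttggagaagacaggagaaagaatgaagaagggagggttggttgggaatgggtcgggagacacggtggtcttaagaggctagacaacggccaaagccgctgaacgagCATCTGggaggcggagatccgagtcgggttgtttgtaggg
Lyl1, chr8:84701207-84701506, plus strand: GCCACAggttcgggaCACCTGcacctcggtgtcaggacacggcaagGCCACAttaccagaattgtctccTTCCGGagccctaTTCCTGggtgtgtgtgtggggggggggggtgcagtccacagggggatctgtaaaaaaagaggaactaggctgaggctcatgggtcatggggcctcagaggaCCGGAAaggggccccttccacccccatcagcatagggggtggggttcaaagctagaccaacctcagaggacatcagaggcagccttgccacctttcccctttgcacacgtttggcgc
Erg, chr16:95459299-95459598, minus strand: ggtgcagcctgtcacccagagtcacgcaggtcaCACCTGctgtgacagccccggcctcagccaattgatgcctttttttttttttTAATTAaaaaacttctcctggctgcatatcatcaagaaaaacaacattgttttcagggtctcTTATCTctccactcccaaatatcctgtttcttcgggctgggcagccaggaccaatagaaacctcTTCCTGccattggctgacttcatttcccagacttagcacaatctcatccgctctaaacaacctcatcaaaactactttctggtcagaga
Mecom, chr3:30509710-30510009, minus strand: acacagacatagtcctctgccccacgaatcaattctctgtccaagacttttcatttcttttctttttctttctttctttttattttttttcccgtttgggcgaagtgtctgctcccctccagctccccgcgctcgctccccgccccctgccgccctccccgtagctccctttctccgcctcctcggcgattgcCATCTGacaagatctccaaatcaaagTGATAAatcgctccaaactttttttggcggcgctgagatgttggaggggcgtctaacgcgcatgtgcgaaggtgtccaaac

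The promoter table held 14 windows for 8 of the 10 genes, among them 2 for Tal1, 3 for Erg and 2 for Mecom. The window shown of each of these 3 genes is the one with the most words, and the other Tal1 window and 1 of the other Erg windows held none of the words. GATA words were in 4 of these 14 windows, those of Tal1 and Erg (1 each) and both of Mecom, while 29.8% of all 32851 windows held one. ETS words were in 6 of 14, against 41.4% of all windows, and E-box words in 6 of 14, against 44.3%. RUNX words were in 2 of 14, against 36.9%, in the window of Lyl1 and in a window of Runx1 itself. The Lyl1 window shown above held 3 ETS words, 1 E-box word and 2 RUNX words, and the Tal1 window shown held a GATA word upstream and an E-box word just after the start. The members' shares of GATA, ETS and E-box words were thus close to those of all windows, and their share of RUNX words was lower. A match is a description of the letters and not a binding site. The part of these words in how the genes varied across the arrays was not tested.

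The array measures each probe set as a MAS5 signal on a linear scale, and no detection calls were used. Array medians were 92.0 to 108.6, and precision is limited by how few arrays there are. Of the 20 probe sets, 13 had a mean over the 6 arrays above the filter at the 40th percentile (60.5) and were tested; they cover all 10 genes. The other 7, with means of 18.2 to 40.2, were not tested, and the tested ones began at 89.1. The uninduced array of experiment A had an Actb control ratio (3' end over 5' end) of 2.88, against 1.26 to 1.48 on the other 5 arrays. Hoxb4 itself had log2 differences of 0.57 and 0.86 between doxycycline and uninduced arrays on its probe sets, neither past the test (limma, adjusted p = 1 for both). On both probe sets the signal was higher with doxycycline in each experiment, and the groups were closest in B. On 1 of them it was 116.4, 129.5 and 175.5 with doxycycline in A, B and C, against 46.5, 119.8 and 113.5 uninduced. On the other it was 136.3, 261.4 and 150.7 with doxycycline, against 78.2, 253.0 and 27.6 uninduced. Whether these probe sets read the transcript of the cassette is not given in the sources used here, so how far HOXB4 was induced is not known from them. In these mixed cultures, summed signals of endothelial markers ran between 1077 and 8666 on the doxycycline arrays and between 1292 and 7935 on the uninduced arrays, and those of primitive erythroid markers between 1606 and 26428 and between 484 and 36995.

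The study asked whether HOXB4 induction changes the transcriptome of embryoid bodies, and the first comparison set doxycycline against uninduced arrays. No probe set of the 10 genes passed the test of doxycycline: limma called 0 of 13 tested, as it called 0 of all 27022 tested probe sets (0%). At an unadjusted p under 0.05 there were 0 of 13 members and 138 of all (0.511%). A share this far under the threshold of 0.05 marks a conservative test, as this fit leaves the spread between experiments in its error. Its 0 calls therefore do not show that nothing changed. With the experiment letter as a replicate block the calls were again 0 of 13 and 0 of 27022, and 1 of 13 and 1065 (3.94%) had an unadjusted p under 0.05. The member genes had a median log2 difference of 0.15 between doxycycline and uninduced arrays, and all 12452 genes tested one of 0.016, with 6 of 10 members and 53% of all genes on the higher side. The intervals were wide: the median half-width of the 95% interval was 1.43 log2 units for the members and 0.81 for all tested probe sets. With the replicate block it was 0.79 for the members. Unless stated, intervals of single genes for doxycycline are from the fit without the block and include the spread between experiments.

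Among the helix-loop-helix factors and their adaptor, Tal1, required for all blood lineages, had signals of 459.5, 1015.4 and 13.5 with doxycycline in experiments A, B and C, against 181.4, 729.7 and 106.2 uninduced. The signal was thus higher with doxycycline in A and B and lower in C, and the groups overlapped. The fitted log2 difference was -0.08 with a 95% interval of -2.97 to 2.82. Lyl1, the close relative of Tal1 that can stand in for part of its function in adult blood stem cells, had 148.6, 357.6 and 58.4 with doxycycline, against 61.0, 403.7 and 86.3 uninduced. It was higher in A only, with a log2 difference of 0.15 (interval -1.63 to 1.93). Lmo2, the LIM-only adaptor that bridges TAL1 and GATA factors, had 411.6, 407.6 and 283.9 with doxycycline, against 171.3, 352.4 and 461.4 uninduced. Its lowest value was the uninduced array of A and its highest the uninduced array of C, and the log2 difference was 0.24 (interval -0.66 to 1.14).

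Gata1, the driver of erythroid and megakaryocytic maturation, had signals of 81.1, 243.6 and 104.6 with doxycycline, against 45.2, 207.4 and 143.1 uninduced. Both arrays of B stood above the other 4, and the log2 difference was 0.15 (interval -1.17 to 1.48). Gata2, needed for the emergence and upkeep of blood stem cells, was read by 2 tested probe sets. On 1450333_a_at it had 389.9, 418.1 and 147.2 with doxycycline, against 240.8, 470.0 and 233.0 uninduced. On 1428816_a_at it had 136.5, 282.7 and 84.9 with doxycycline, against 135.6, 263.5 and 55.0 uninduced. The probe sets pointed opposite ways in B and in C, with log2 differences of -0.04 and 0.20 over the 3 experiments and a correlation of 0.79 over the 6 arrays.

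Of the ETS factors, Etv2 had 448.2, 435.9 and 209.5 with doxycycline, against 276.0, 381.5 and 284.7 uninduced, a log2 difference of 0.15 (interval -0.67 to 0.96). Its arrays spread less than those of the other ETS factors. Fli1, an early activator of the blood and endothelial programme, had 134.7, 354.4 and 57.6 with doxycycline on probe set 1433512_at, against 39.8, 318.2 and 35.0 uninduced. This probe set was higher with doxycycline in 3 of 3 experiments, by 1.39, 0.15 and 0.51 log2 units, while the groups overlapped. The fitted difference of 0.68 had an interval of -1.26 to 2.62, or -0.11 to 1.47 with the replicate block. On the other Fli1 probe set, 1422024_at, the signals were 72.3, 217.1 and 11.4 with doxycycline, against 35.3, 268.3 and 74.4 uninduced, a log2 difference of -0.39. The within-array difference between these probe sets did not overlap between the groups (difference of the log2 changes 1.07, exact two-sided permutation p = 0.1, the smallest p that 3 against 3 arrays allow, and 0.3 after Benjamini-Hochberg adjustment over the 3 genes with 2 tested probe sets).

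Erg, the ETS factor that maintains endothelial identity and blood stem cells, had 57.5, 308.9 and 6.9 with doxycycline on probe set 1440244_at, against 6.7, 245.1 and 11.7 uninduced. Only the arrays of B and the doxycycline array of A reached 50, and the log2 difference was 0.55 (interval -2.11 to 3.20). Its second probe set, 1425370_a_at, was not tested; it had 4.6, 60.4 and 55.8 with doxycycline, against 5.1, 31.2 and 10.1 uninduced, all below the median of their arrays. Mecom encodes the zinc finger factor EVI1 and its longer form with a PR domain, both active in blood stem cells and in other embryonic tissues. On 1438325_at it had 166.1, 959.8 and 187.0 with doxycycline, against 195.5, 1040.0 and 228.9 uninduced. It was lower with doxycycline in 3 of 3 experiments, by -0.21, -0.11 and -0.27 log2 units. The difference of -0.20 (interval -2.06 to 1.67, or -0.67 to 0.28 with the replicate block) was small beside the gap between experiments. Of its untested probe sets, 1422295_at was also highest in B, with 60.4 and 64.6 there and 6.5 to 26.0 elsewhere (r = 0.94 over the 6 arrays), and 1423011_at lay between 2.7 and 33.2 without it (r = -0.01).

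**Figure D1:**
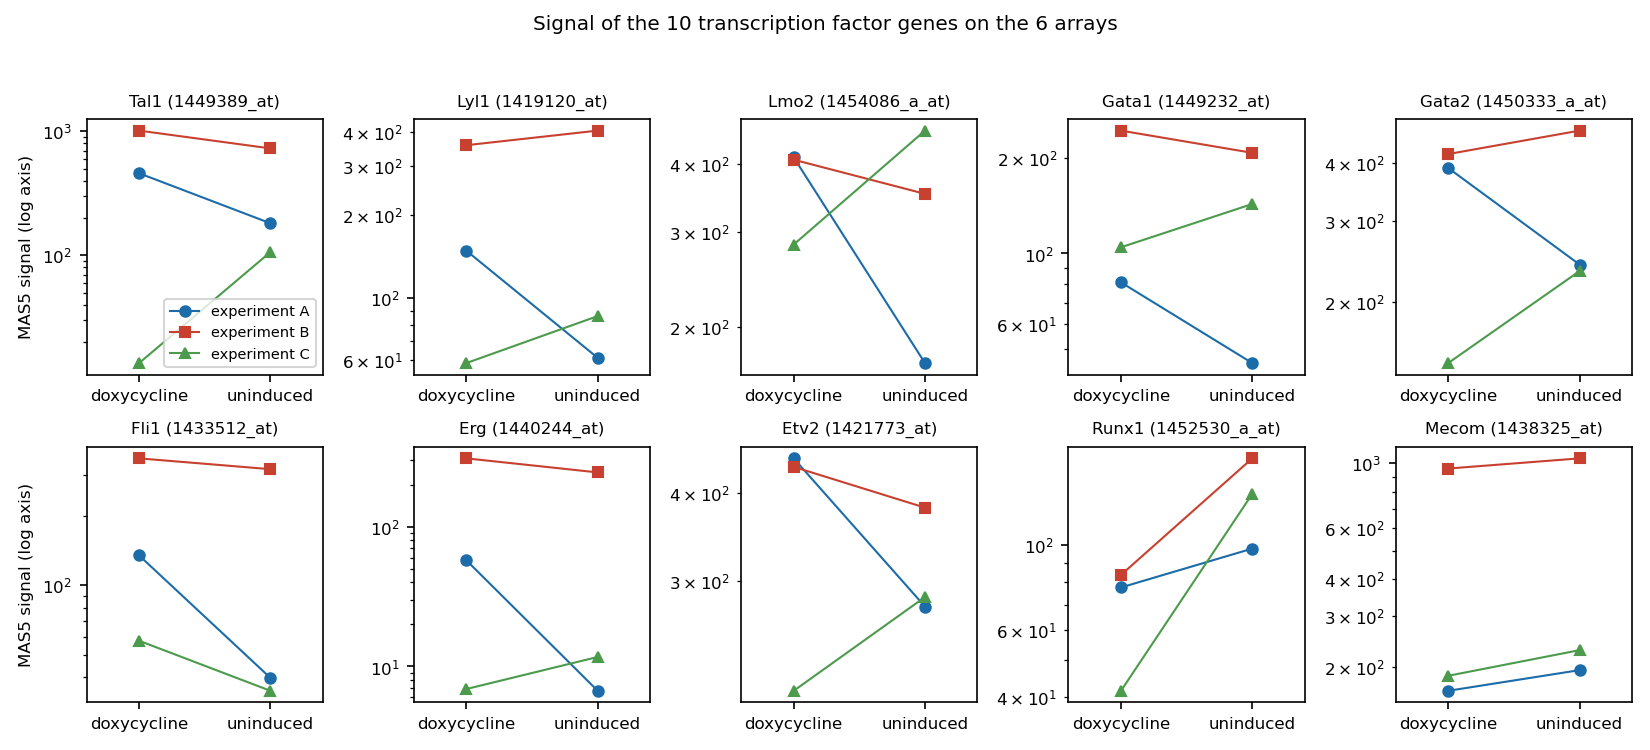
MAS5 signal (log axis) of the 10 genes, 1 probe set a gene (the tested one with the highest mean), on the 6 arrays; lines join the doxycycline array (left) and the uninduced array (right) of an experiment. The arrays of experiment B are the highest for 7 of the 10 genes, among them Erg, whose probe set reached the filter only through B. The lines of A and C slope in opposite directions for 7 genes, upward towards doxycycline in A.

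**Figure D2:**
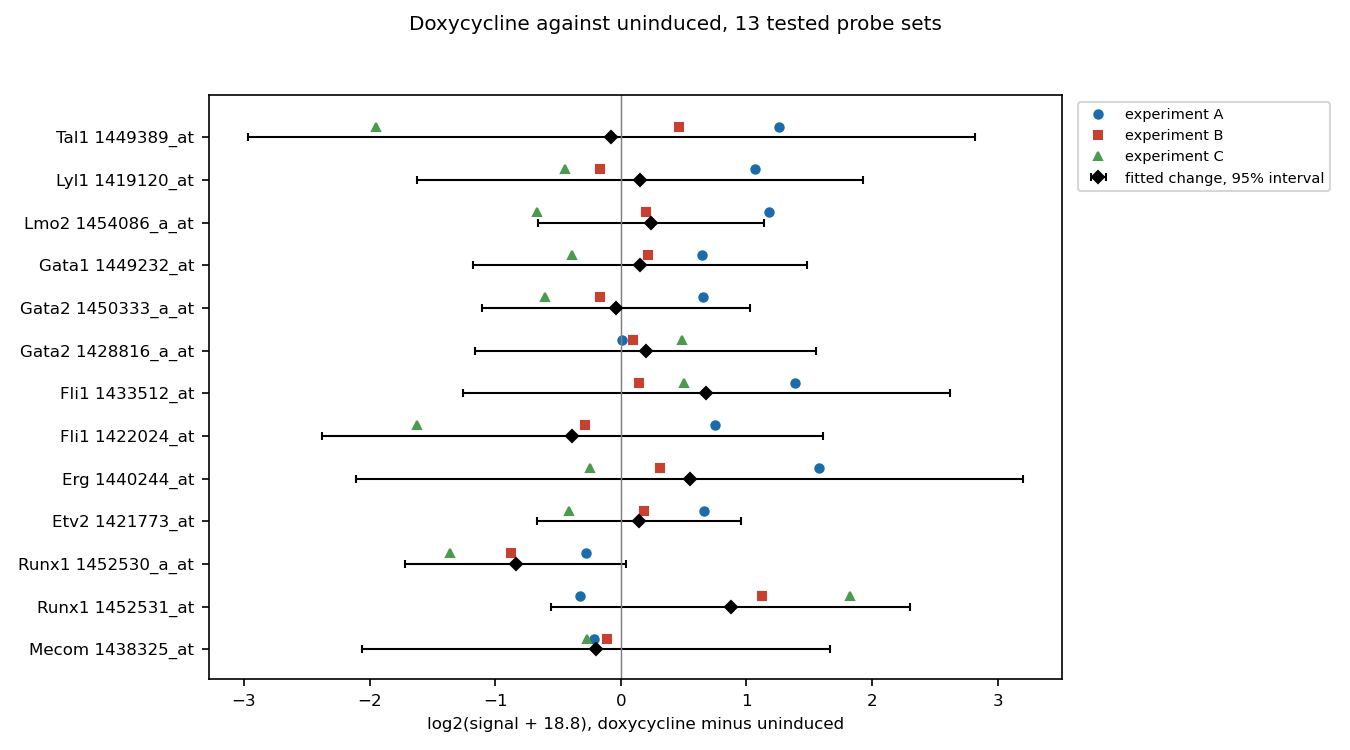
Difference in log2(signal + 18.8) between doxycycline and uninduced arrays for the 13 tested probe sets: diamonds with bars are limma's fitted difference and its 95% interval, coloured marks the differences in experiments A, B and C. Every interval of this fit, made without the replicate block, includes 0. The fitted differences run from -0.84 to 0.87, both ends being probe sets of Runx1. With the replicate block the interval of Runx1 1452530_a_at was -1.63 to -0.05, and it did not pass the threshold after adjustment.

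Runx1, the regulator of the switch from endothelium to blood cells, was the member whose probe sets disagreed most. It has 6 probe sets, of which 2 were tested, and the annotation gives those 2 the same source sequence. On 1452530_a_at, a name that marks probes shared by several transcripts of a gene, the signals were 77.6, 83.7 and 41.6 with doxycycline, against 98.1, 169.1 and 136.4 uninduced. All 3 doxycycline arrays lay below all 3 uninduced ones, which was so for 1 of 13 member probe sets and for 2.11% of all tested probe sets, while the reverse order held for 0 of 13 and 2.24%. The log2 difference was -0.84 (interval -1.71 to 0.04, or -1.63 to -0.05 with the replicate block). Its adjusted p in limma was 1, and 0.93 under the replicate block, against unadjusted values of 0.0585 and 0.0404.

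On 1452531_at the signals were 59.2, 62.5 and 256.4 with doxycycline, against 78.9, 18.5 and 59.0 uninduced. This probe set was higher with doxycycline in B and C and lower in A, a log2 difference of 0.87 (interval -0.56 to 2.30), and the doxycycline array of C was far above the other 5. Over the 6 arrays the 2 tested probe sets ran against each other, with r = -0.91. The difference of their log2 changes was -1.71, with an exact two-sided permutation p of 0.3 (0.45 adjusted over the 3 genes). For the 2 probe sets of Gata2 the same difference was -0.23 (exact permutation p = 0.5). The smallest p that 3 against 3 arrays allow is 0.1, which lies above the threshold. No disagreement could therefore have passed this test, and it does not decide whether the probe sets differ in their change.

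The 4 untested Runx1 probe sets had values below the median of their array on all 6 arrays. On 1422864_at the signals were 38.5, 41.2 and 42.8 with doxycycline, against 35.9, 80.5 and 2.3 uninduced, and on 1422865_at they were 34.4, 49.4 and 58.9, against 24.3, 43.4 and 29.4. On 1427650_a_at they were 4.7, 7.7 and 22.9 with doxycycline, against 15.1, 41.9 and 36.6 uninduced, lower in 3 of 3 experiments like the first tested probe set. On 1440878_at they were 1.7, 44.5 and 19.0, against 3.2, 38.9 and 4.2. Only 1422865_at was higher with doxycycline in all 3 experiments. Across the 6 probe sets, 2 were therefore lower with doxycycline in every experiment, 1 was higher in every experiment and 3 changed direction between experiments, so the probe sets gave Runx1 no common direction.

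**Figure D3:**
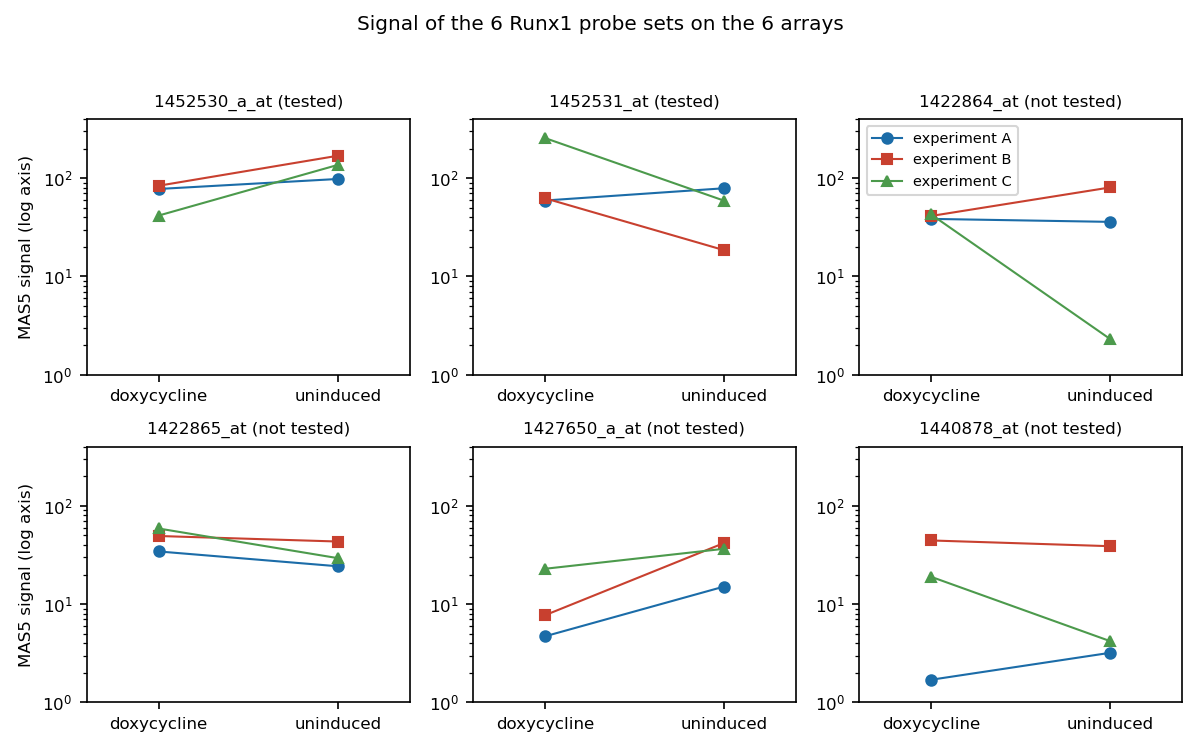
MAS5 signal (log axis) of the 6 Runx1 probe sets, with lines from the doxycycline array (left) to the uninduced array (right) of each experiment. The 2 tested probe sets slope opposite ways in B and C, and the 4 others stay at or below 80.5.

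Within single experiments most differences had the same sign, which was not the same sign in A as in C. In A, 10 of 13 member probe sets were higher with doxycycline, against 46.4% of all tested probe sets, and 5 were more than 2-fold higher (6.27% of all). In C, 10 of 13 were lower with doxycycline, against 48.0% of all, and 3 were more than 2-fold lower with the same offset (2.88% of all). With doxycycline in B, 8 of 13 were higher, against 51.1%. Being higher in A and lower in C was found for 8 of 13 member probe sets and 22.9% of all, and 5 of 13 (9.87% of all) were also higher in B. The same sign in all 3 experiments was seen for 2 higher (12.8% of all) and 2 lower (13.2%) probe sets of the 13. Taking 1 probe set a gene, the median log2 difference of the 10 genes stood at 0.87 for A, 0.17 for B and -0.43 for C, where that of all tested probe sets was -0.045, 0.0080 and 0.018. Each of these is 1 pair of arrays and has no test.

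Endothelial markers moved with the genes in these pairs. Summed over 10 markers, which include the vascular receptors Kdr, Tek and Tie1, the signal was 2673 with doxycycline and 1292 uninduced for A, 8666 and 7935 for B, and 1077 and 1449 for C. Summed over the 7 primitive erythroid markers named on the array it was 3064 and 484 for A, 26428 and 36995 for B, and 1606 and 1699 for C. No marker of these lists was listed at 0. The uninduced array of A, with the high 3' to 5' ratio, is 1 side of the pair in A. The part of these markers and of that array in the differences was not tested.

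The second comparison set the experiments against each other, all 3 being embryoid bodies of the same line and day. It was fitted over all arrays with the doxycycline term in the model. The 2 arrays of an experiment share a letter, so a call says that experiments differ by more than the 2 arrays of an experiment do. Tal1, Lyl1, Fli1, Erg and Mecom were lower in experiment C than in experiment B, and Gata2 was so on 1 of its 2 tested probe sets. Of the 13 probe sets 7 were lower past the threshold and 0 higher, where 5.26% of all tested probe sets were lower and 4.33% higher. Among these 7, Erg 1440244_at and Fli1 1422024_at reached the filter only through the arrays of B, where they are high. The estimate was below 0 for 12 of 13, against 44.3% of all. With 1 probe set a gene, 5 of 10 genes were lower and 0 higher, against 6.94% and 5.78% of the 12452 genes. The median difference C minus B was -1.66 against 0.065 for all genes. Erg, tested because it is high in B, is among these 5 genes and enters this median.

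Tal1 had 13.5 and 106.2 in C, against 1015.4 and 729.7 in B (doxycycline array first), and the log2 difference was -3.79 (-5.30 to -2.29; limma, adjusted p = 0.0101). Erg had 6.9 and 11.7 in C, against 308.9 and 245.1 in B, a difference of -3.39 (-4.71 to -2.08; adjusted p = 0.00895). Its probe set also reached the filter only through B, so that it was tested because it is high there; it was called with no filter as well, and its signals in C lie under the offset of 18.8, so the size of the difference is uncertain. For Mecom the difference had the narrowest interval, -2.17 (-2.75 to -1.59; adjusted p = 0.00168). The difference was -2.47 for Fli1 on 1433512_at (adjusted p = 0.00941) and -2.29 on 1422024_at (adjusted p = 0.046). The call on 1422024_at was lost with no filter and with an offset of 1, and this probe set reached the filter only through the arrays of B, where it is high. It was -2.15 for Lyl1 (adjusted p = 0.019). Gata2 passed on 1428816_a_at at -1.74 (adjusted p = 0.0164) and not on 1450333_a_at, at -1.18 (interval -1.97 to -0.38; adjusted p = 0.0749).

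The remaining 4 genes did not pass. Lmo2 stood at -0.06 (interval -1.01 to 0.89), Etv2 at -0.70 (-1.43 to 0.03), Gata1 at -0.79 (-1.68 to 0.11), and Runx1 at -0.52 (-1.49 to 0.45) and 1.41 (0.10 to 2.72) on its 2 tested probe sets. Of the 13 probe sets, the second one of Runx1 alone had a higher point estimate in C.

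Mecom was also lower in experiment A than in experiment B, and Erg and Fli1 were so with the filter but not without it. In A minus B, 3 of 13 probe sets were lower past the threshold and 0 higher (2.09% and 1.91% of all tested probe sets), and the estimate was below 0 for 12 of 13 (44.0% of all). These were Mecom at -2.35 (interval -2.93 to -1.78; adjusted p = 0.00625), Erg at -2.74 (-4.05 to -1.42; 0.0425) and Fli1 on 1433512_at at -1.90 (-2.87 to -0.94; 0.0487). Gata1 (-1.61, adjusted p = 0.0613) and Lyl1 (-1.79, 0.0615) were just outside the threshold. Between A and C, 0 of 13 passed (2.52% of all probe sets lower and 4.29% higher), with Tal1 at 2.28 (adjusted p = 0.0731). Both arrays of B lay above the other 4 for 9 of 13 probe sets, against 12.2% of all, and both lay below them for 0, against 16.4%. Erg 1440244_at and Fli1 1422024_at are among these 9 and reached the filter only through B, so for them this order is no separate result.

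Single arrays and experiments weigh on these counts. Without both arrays of A, C minus B gave 10 member calls, of which 1, Runx1 1452531_at, was higher in C. Calls over all probe sets then rose to 4448 higher and 3731 lower. The 7 calls of C minus B became 4 without the doxycycline array of B or of C and 2 (Tal1 and Mecom) without the uninduced array of B. The 3 calls of A minus B became 9 without the doxycycline array of A, 6 and 5 without the doxycycline and uninduced arrays of C, and 1 (Mecom) without the uninduced array of A or either array of B. The mean signal of 2 of the 13 probe sets, Erg 1440244_at and Fli1 1422024_at, reached the filter only through the arrays of B (20.7 and 48.35 over the other 4 arrays).

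**Figure D4:**
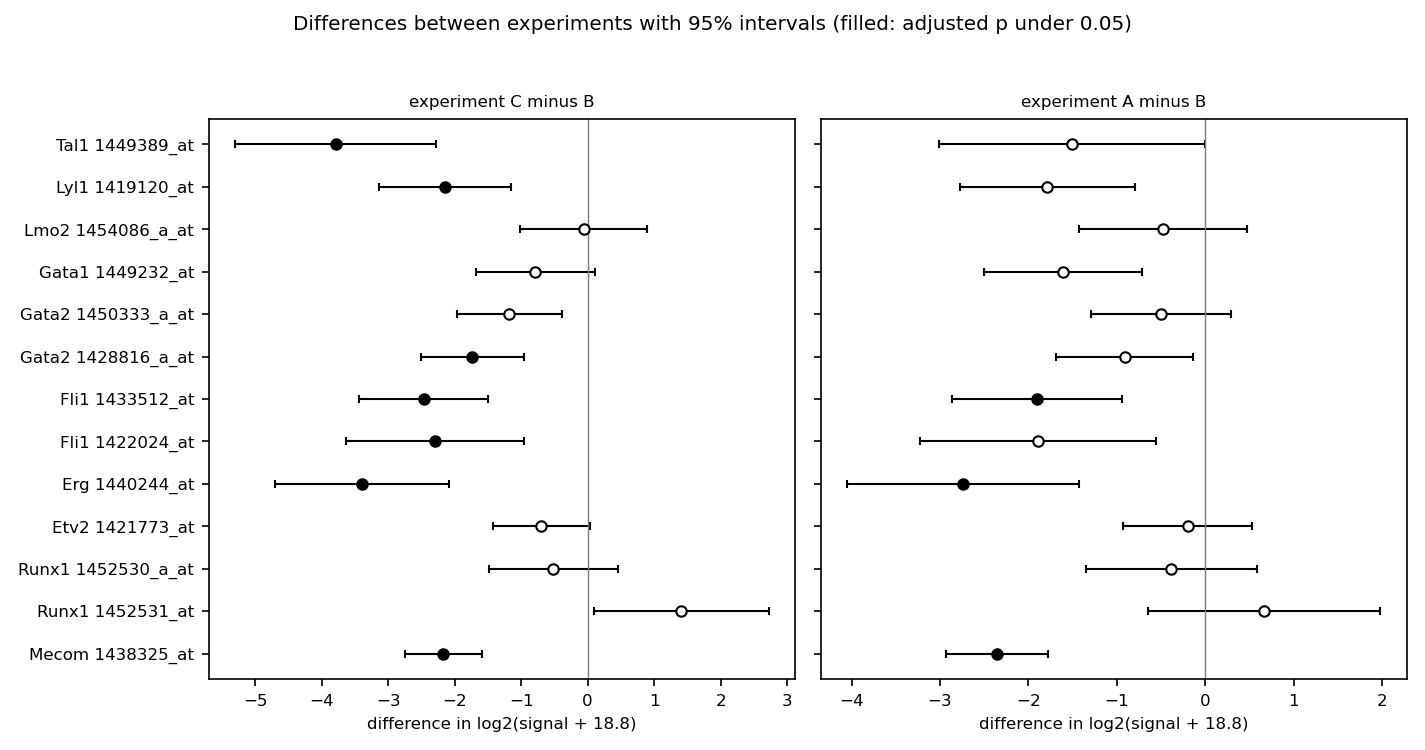
Differences in log2(signal + 18.8) between experiments, C minus B (left) and A minus B (right), for the 13 tested probe sets, with 95% intervals from limma; filled points have an adjusted p under 0.05. Filled points are 7 on the left and 3 on the right, all below 0, and 1452531_at of Runx1 is the 1 point above 0 in each panel.

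Across the 6 arrays the genes kept a common order to differing degrees. Pearson's r of a gene's log2 signal with the mean of the other 9 was 0.99 for Lyl1, 0.98 for Erg, 0.92 for Fli1, 0.91 for Gata2, 0.86 for Tal1 and Mecom, 0.83 for Etv2 and 0.72 for Gata1. It was 0.45 for both Lmo2 and Runx1. Over the 45 pairs of genes r ran from 0.22 to 0.99 with a median of 0.70. These values describe 6 arrays from 3 experiments.

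The genes outside the list whose log2 signals were most like the mean of the 10 were Esam (r = 0.999), Pold4 (0.997), Nagk (0.996), Hoxd1 (0.996) and Serpinb6a (0.993), over 6 arrays and 12442 genes, of which 3.75% had r over 0.9. Esam, an adhesion molecule of endothelial junctions and blood stem cells, had 222.4, 774.7 and 43.1 with doxycycline, against 78.3, 806.3 and 129.1 uninduced. Hoxd1, a homeobox gene, had 121.4, 334.4 and 43.2 with doxycycline, against 58.3, 341.0 and 96.1 uninduced. Both were higher in A and lower in C with doxycycline and highest in B. They were picked for likeness to the members over these same arrays, so this restates the choice. Pold4 encodes a subunit of DNA polymerase delta, Nagk an N-acetylglucosamine kinase and Serpinb6a a serpin protease inhibitor.

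The partners and cofactors of these factors, which are also used outside blood, mostly did not pass in either comparison. Of 16 genes, all tested, 0 passed the test of doxycycline (8 estimates higher and 8 lower, median 0.0043). In C minus B 2 were lower and 1 higher past the threshold (6.94% and 5.78% of all genes), with a median of 0.20. The partners with the highest mean signal were the E protein gene Tcf12 (0.56, adjusted p = 0.118), the corepressor genes Ctbp2 (0.22, 0.423) and Ctbp1 (0.75, 0.0352), and Cbfb, the obligate partner of RUNX proteins (0.21, 0.576), where the values are log2 differences C minus B. Ctbp1 was the 1 that was higher in C. Chosen after their values were known, the 2 lower ones were Runx1t1 (-3.33, adjusted p = 0.00042) and the GATA1 partner gene Zfpm1 (-2.05, adjusted p = 0.00186).

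Of 24 other blood and endothelial transcription factors, 21 were tested and 0 passed the test of doxycycline (14 estimates higher and 7 lower, median 0.14). In C minus B, 8 were lower and 2 higher past the threshold (6.94% and 5.78% of all genes), with a median of -1.70. Ets1 had 299.6 and 263.4 in C, against 1853.3 and 1834.8 in B (doxycycline array first), a log2 difference of -2.64 (adjusted p = 0.000935). Sox17, a factor of arterial endothelium and of endoderm, stood at -2.01 (adjusted p = 0.00332), Ets2 at -1.22 (adjusted p = 0.0116), and Etv6, which did not pass, at -0.39 (adjusted p = 0.329). The 2 higher in C, chosen after their values were known, were Tal2, a relative of Tal1 known from the developing midbrain (4.996, adjusted p = 0.000172), and Prdm16, a relative of Mecom (1.70, adjusted p = 0.0374). Tal1 and Tal2, and Mecom and Prdm16, thus differed in opposite directions between these experiments. Beside them, 6 neural markers summed to 3223 and 4021 in C, against 235 and 453 in B, and their part in these differences was not tested.

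Of 23 genes known as direct or downstream targets of the 10 factors, 22 were named on the array and tested, and several of them also belong to the lists of other factors and of endothelial and erythroid markers. With doxycycline 0 passed the test (16 estimates higher and 6 lower, median 0.19). In C minus B 12 were lower and 0 higher past the threshold (6.94% and 5.78% of all genes), with a median of -2.05. In A minus B 10 were lower and 0 higher (2.76% and 2.37% of all genes), with a median of -1.98. The embryonic globin genes Hbb-bh1 and Hba-x differed by -4.55 (adjusted p = 0.00589) and -4.65 (adjusted p = 0.0021) in C minus B. Kdr, the VEGF receptor of blood and endothelial precursors, had 28.0 and 354.0 in C, against 1801.0 and 1974.3 in B, a difference of -3.85 (adjusted p = 0.0265), and Kit, the stem cell factor receptor, stood at -0.89 (adjusted p = 0.037). Of the 10 endothelial markers, 8 were lower in C than in B and 5 lower in A than in B past the threshold. Of 7 erythroid markers these were 2 and 4, where 6.94% and 2.76% of all genes were lower. Myeloid markers summed to between 583 and 910 on all 6 arrays, with 0 of 4 tested genes past the threshold in C minus B. Markers of other tissues differed between these experiments too. Endoderm markers summed to 594 and 538 in C, against 12328 and 12882 in B (doxycycline array first), with 4 of 6 lower in C past the threshold. Cardiac markers summed to 505 and 586 in C, against 2152 and 3992 in B, with 3 of 6 lower, and pluripotency markers to 7290 and 7251 in C, against 708 and 970 in B, with 3 of 5 higher. The part of any of these cell types in the differences of the 10 genes was not tested.

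**Figure D5:**
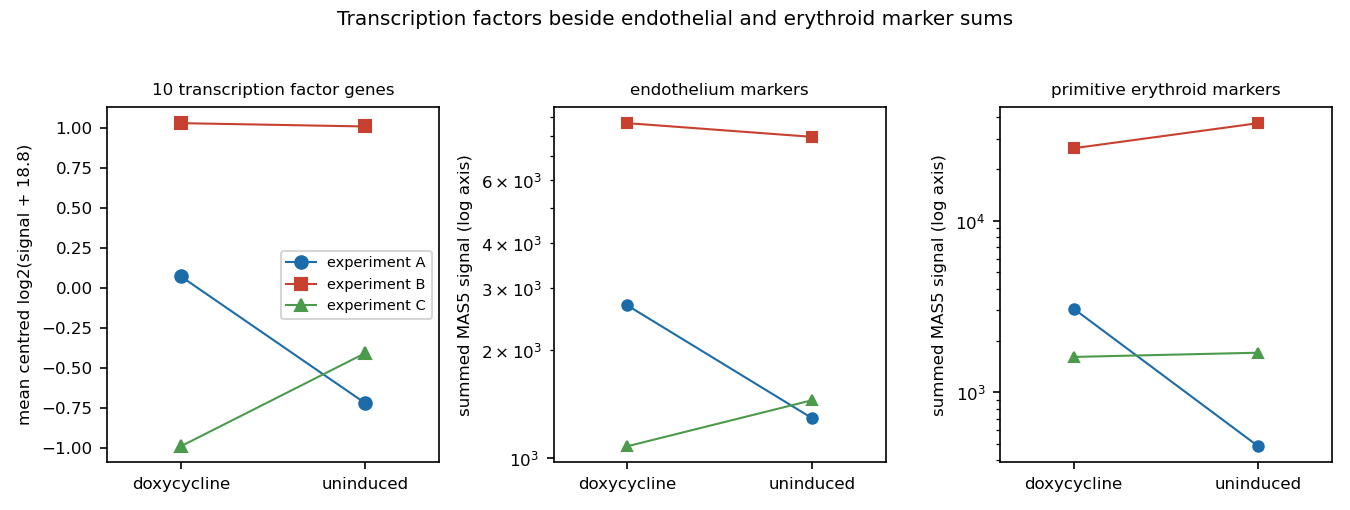
Mean of the 10 genes' log2(signal + 18.8) after centring each gene (left), and summed MAS5 signals (log axis) of 10 endothelial markers (middle) and 7 primitive erythroid markers (right), with lines from the doxycycline array to the uninduced array of each experiment. In all panels both arrays of B lie above the other 4, and the left panel spans -0.99 to 1.03.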

How the data were processed

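Each array's table, as deposited by the authors, gives an intensity for each probe set, a linear signal made with MAS5 per the submitters' processing notes; the MAS5 version is not given in the sources used here. From the 45101 probe sets, 64 controls were left out, log2(signal + 18.8) was taken (18.8 is the 20th percentile of all values), and the 27022 probe sets with a mean at or above the 40th percentile were tested. The offset makes log2 differences of dim probe sets smaller. Probe sets were named from GEO's platform annotation, updated through the Entrez ID to RefSeq symbols (GRCm38.p6); for counts of genes the tested probe set with the highest mean was used.

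limma 3.58.1 in R 4.3.3 was fitted to all 6 arrays (two-sided, with an intensity trend; threshold 0.05 after Benjamini-Hochberg adjustment over the 27022): doxycycline against uninduced without a block, with the letter as a replicate block in an alternative fit, and experiments against each other with a doxycycline term. Same-lettered arrays come from 1 experiment per the labels, so the letters pair them; their deviations from the group means correlated at 0.45, 0.67 and 0.66. Probe sets of a gene were compared by exact permutation tests. The members and lists were chosen with earlier results of these data known. Named genes were all members, the 5 most like them by Pearson's r, and up to 4 genes of each other list with the highest mean signal; exceptions are marked. The labels call the arrays biological replicates and say no more of how the cultures were kept apart.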

Additional observations from a re-analysis of the deposited data

How the results depend on the processing

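The count of 0 member probe sets and 0 of all probe sets past the threshold with doxycycline held under the replicate block and all other alternatives run (offsets of 1 and 50, no filter and one at the 60th percentile, quantile normalization, no intensity trend, and leaving out 1 array or both arrays of an experiment), and the block changed no call. The members' median stayed within the spread between experiments in all of them (-0.35 to 0.54 with arrays left out). Leaving out arrays gave log2 differences of -1.10 to 1.41 for Tal1, -0.42 to 0.89 for Lyl1, -0.23 to 0.69 for Lmo2, -0.37 to 0.54 for Gata1, -0.38 to 0.41 and -0.30 to 0.67 for Gata2 on 1450333_a_at and 1428816_a_at, -1.11 to 0.37 for Fli1 on 1422024_at, -0.41 to 1.63 for Erg, -0.11 to 0.48 for Etv2 and -0.97 to 0.54 for Mecom; the sign held for both Runx1 probe sets (-1.12 to -0.58 and 0.28 to 1.47) and Fli1 on 1433512_at. An offset of 50 turned Tal1 to 0.097. Leaving out arrays unbalances the experiments between the groups.

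Between the experiments, limma's F test called 6 of 13 member probe sets, among them Erg 1440244_at, which reached the filter only through B, and 3138 of all (11.6%). With arrays left out these were 1 to 12 and 1098 to 13806, C minus B gave 2 to 10 member calls and A minus B 1 to 9; leaving out 1 array leaves 1 residual degree of freedom. The filter at the 60th percentile, which tests 5 member probe sets, gave 2 by the F test, 2 for C minus B and 1 for A minus B. Without the intensity trend there were 1186 calls by the F test, and 4 member calls for C minus B and 1 for A minus B. The 4 were Erg, Fli1, Gata2 and Mecom, so the calls of Tal1 and Lyl1 were lost. For A minus B, an offset of 1, no filter and quantile normalization each gave 1. The cause of these shifts was not tested. The counts of C minus B and A minus B under other settings were added after seeing the data. No detection calls were used, so for the dim probe sets signal over background is unknown.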

Other observations

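The homeodomain word TAATTA was in 2 of the 14 promoter windows of these genes, both of them windows of Erg, where 5.29% of all 32851 windows hold it. Erg had signals of 57.5, 308.9 and 6.9 with doxycycline in A, B and C, against 6.7, 245.1 and 11.7 uninduced, and did not pass the test of doxycycline.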
